A study of Mus musculus with 10 samples.

Results

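The genes described here handle iron, heme and other metals in the lung: the ferritin genes Fth1 and Ftl1, the transporters Slc40a1, Slc11a1 and Slc11a2, the transferrin receptor Tfrc, the ferroxidase ceruloplasmin (Cp), the metallothioneins Mt1 and Mt2, and the hemoglobin receptor Cd163. They were chosen by name, with earlier results of these data known. Every array probe whose gene name in the deposited files, or its current symbol, is among them was taken. All 10 of the 10 genes were measured, by 13 probes, out of 27670 genes and 41174 probes on the array.

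Whole lungs of female BALB/c mice, an inbred laboratory strain, were compared after 8 weeks of exposure to cigarette smoke or to room air, with 5 mice in each group and 1 array per mouse. The mice were 6 to 8 weeks old on arrival. The smoke group breathed, in a whole-body chamber, the mainstream smoke of 12 reference cigarettes with the filters removed, in each of 2 exposures of 50 minutes a day on 5 days a week, and the control group breathed room air for the same 8 weeks. The labels name no genetic change in either group. The arrays are Agilent 2-colour arrays, and each level below is the log2 ratio of the red signal, which holds the lung RNA, over the green signal, which holds a reference RNA.

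The labels name a single dye, and marker genes showed which RNA each channel holds. Sftpc, the surfactant protein of alveolar type 2 cells, was brighter in red than in green by 5.75 to 6.91 on the log2 scale over the 10 arrays, Scgb1a1 of club cells by 5.96 to 7.23 and Ager of alveolar type 1 cells by 4.28 to 5.30; all 3 are defining genes of lung tissue. Ddx3y, a gene of the Y chromosome that female mice lack, differed the other way, with red minus green between -8.18 and -4.40; its red signal was well above background on 2 of 10 arrays, so the size of that difference is uncertain. Each direction below rests on that reading and on the scanner files as they are assigned to the mice, because the columns of the authors' processed table hold the values of the array of the same number in the opposite group. Red signal was well above background in 67.8 to 76.7% of the spots on the room air arrays and in 64.9 to 77.5% on the smoke arrays. The number of arrays is among the limits on how precise a value can be. The array of room air 1 stood apart: its log2 ratio lay far above those of the other room air arrays in 850 probes, against 121 to 426 probes for each of those. Several results that rest on that lung are given with and without it, and other values are given with it only.

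Cells take up iron bound to transferrin through the transferrin receptor or import it as a free metal ion, store the excess inside the shell of ferritin, and release it through ferroportin, helped by a copper enzyme that oxidizes the metal on its way out. Metallothioneins are small proteins rich in cysteine that bind zinc and copper, and their genes are known to respond to metals and to inflammatory signals. In the lung, macrophages in the air spaces clear particles and dying cells and are known to hold much of the tissue's stored iron.

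With smoke 6 of the 13 probes were higher, and 6 of the 10 genes when each was represented by its probe with the brightest red signal: Fth1, Ftl1, Slc40a1, Slc11a1, Slc11a2 and Cp. None was lower. These calls use limma with an adjusted p under 0.05 over all 41173 probes tested. The share of all probes called was 7.06% in either direction and 4.35% in the higher direction, against 46.2% of the 13 probes. The 10 genes were chosen with earlier results of these data known, so their share is a description and not a test. Among the 28541 probes well above background in red on at least 5 of 10 arrays, as these 13 are, 2992 were called. With the red processed signal alone, 3 of the 13 were called, and 1759 of all probes. The median of the log2 differences, smoke minus room air, was 0.42 over the 13 probes and -0.0032 over all probes. The groups did not overlap, smoke being above, in 5 of the 13 probes, while they did not overlap in either direction in 6.89% of all probes. Without room air 1, 9 of the 13 probes and 8 of the 10 genes passed, with Mt1 and Mt2 among them, and 3660 of all probes. With the slide, which pairs arrays of the same number, as a block, 8 of the 13 probes and 7 of the 10 genes passed, and 5019 of all probes. All 13 probes were well above background in red on 10 of 10 arrays, and none was saturated. Lung tissue holds many cell types, so more cells of a type and more RNA per cell cannot be told apart here.

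**Figure D1:**
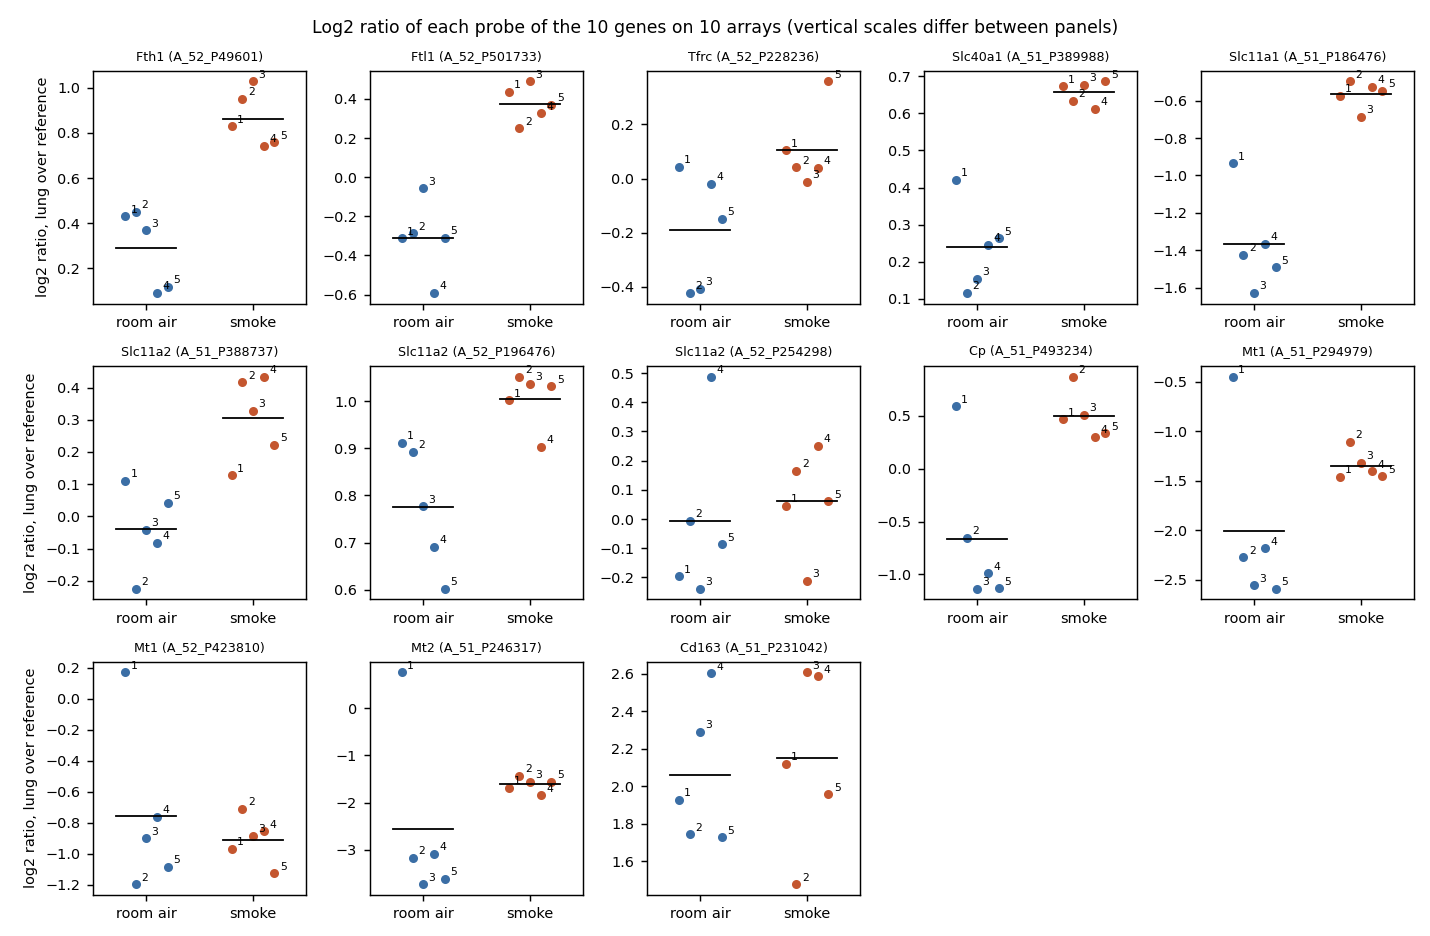
Log2 ratio of lung over reference (vertical axis, scale set per panel) for each of the 13 probes in 5 room air (blue) and 5 smoke (red-brown) lungs; numbers beside points are replicate numbers and lines are group means. The smoke points of Fth1, Ftl1, Slc40a1, Slc11a1 and Slc11a2 (A_51_P388737) all lie above the room air points, and room air 1 lies far above the other room air lungs for Cp, Mt1 (A_51_P294979) and Mt2.

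Ferritin stores iron in a shell of heavy and light subunits. Fth1 encodes the heavy subunit, which oxidizes the metal as it enters. Its log2 ratio of lung over reference was 0.43, 0.45, 0.37, 0.09 and 0.12 in room air 1 to 5 and 0.83, 0.95, 1.03, 0.74 and 0.76 in smoke 1 to 5. The groups did not overlap, and room air 4 and 5 were the lowest. Fth1 rose 1.48-fold, a log2 difference of 0.57 (SE 0.09, adjusted p = 0.00228, limma). The call was lost with the red processed signal alone scaled to its 75th percentile (log2 difference 0.50, adjusted p = 0.178). Over its 24 alternatives the adjusted p ran from 9.27e-05 to 1. The lowest came from a setting chosen after the data were seen, and the highest from the authors' processed table.

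Ftl1 encodes the light subunit, which helps the iron core to form. Its log2 ratio was -0.31, -0.29, -0.06, -0.59 and -0.31 in room air 1 to 5 and 0.44, 0.25, 0.49, 0.33 and 0.37 in smoke 1 to 5. Room air 4 was the lowest and room air 3 the highest of the controls, and all smoke lungs were above them. Ftl1 rose 1.61-fold, a log2 difference of 0.69 (SE 0.09, adjusted p = 0.000694, limma). The light subunit has close copies in the mouse genome. A probe whose name in the files is Ftl2, now Ftl2-ps, also lists an Ftl1 accession, so its signal can come from both, and it is shown here because its values were near those of Ftl1. By the array's own annotation it lies at chr13:71338846-71338905 of build mm7, plus strand, and reads, 5′ to 3′, with no base in capitals because no motif was marked:
Ftl2-ps probe: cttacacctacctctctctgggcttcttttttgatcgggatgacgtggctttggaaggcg
This probe gave -0.23, -0.24, -0.13, -0.56 and -0.34 in room air 1 to 5 and 0.60, 0.42, 0.53, 0.46 and 0.43 in smoke 1 to 5. Its groups were also apart, with a log2 difference of 0.79 (SE 0.08, adjusted p = 0.000117, limma).

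Slc40a1 encodes ferroportin, the exporter that releases iron from cells. Its log2 ratio was 0.42, 0.12, 0.15, 0.25 and 0.26 in room air 1 to 5 and 0.67, 0.63, 0.68, 0.61 and 0.69 in smoke 1 to 5. The smoke lungs lay close together and above all controls, of which room air 1 was the highest. Slc40a1 rose 1.33-fold, a log2 difference of 0.42 (SE 0.06, adjusted p = 0.00128, limma). The adjusted p was 0.167 with median centring and 0.0653 with the scaled red signal alone, with log2 differences of 0.31 and 0.38. Over the 24 alternatives the adjusted p ran from 0.000139, without room air 1, to 1, in the authors' processed table.

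Cp encodes ceruloplasmin, a copper protein that oxidizes iron leaving cells. Its probe is printed because Cp had the largest difference of the 6 called genes. It lies at chr3:19721093-19721152 of mm7, plus strand, and carries no marked motif:
Cp probe: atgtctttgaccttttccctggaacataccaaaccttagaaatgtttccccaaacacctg
The log2 ratio of Cp was 0.59, -0.65, -1.13, -0.99 and -1.13 in room air 1 to 5 and 0.46, 0.87, 0.51, 0.30 and 0.33 in smoke 1 to 5. Room air 1 lay within the smoke group, so the groups overlapped, and the other 4 controls were below every smoke lung. Cp rose 2.23-fold, a log2 difference of 1.16 (SE 0.29, adjusted p = 0.0340, limma). Without room air 1 the log2 difference was 1.47 and the adjusted p 3.63e-05. Without any one of the other 9 arrays the call was lost, with adjusted p from 0.0566 without smoke 4 to 0.0864 without room air 3. In those 2 fits the log2 difference was 1.21 and 1.04. The call was also lost with normexp at an offset of 0 (log2 difference 1.21, adjusted p = 0.0585, limma) and with the scanner's own ratio (1.22, adjusted p = 0.0693). Over the 24 alternatives the adjusted p ran from 1.63e-06 to 1. The lowest came from a setting chosen after the data were seen, and the highest from the authors' processed table.

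Tfrc encodes the receptor that brings transferrin and its iron into the cell. Its log2 ratio, the mean of 10 spots per array, was 0.04, -0.42, -0.41, -0.02 and -0.15 in room air 1 to 5 and 0.10, 0.04, -0.01, 0.04 and 0.36 in smoke 1 to 5. Room air 2 and 3 were low and smoke 5 high, and the groups overlapped. The SD over the 10 spots of an array was 0.06 to 0.12. The log2 difference was 0.30 (SE 0.10), and Tfrc did not pass (adjusted p = 0.135, limma). With the slide as a block, which pairs arrays of the same number, the adjusted p was 0.0492, and smoke was above room air on 5 of 5 slides, by 0.06 to 0.51.

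Slc11a1 encodes a metal transporter of the phagosome membrane in macrophages and neutrophils. Its log2 ratio was -0.93, -1.42, -1.63, -1.36 and -1.49 in room air 1 to 5 and -0.57, -0.50, -0.69, -0.52 and -0.55 in smoke 1 to 5. Room air 1 was the highest control and still below every smoke lung. Slc11a1 rose 1.74-fold, a log2 difference of 0.80 (SE 0.11, adjusted p = 0.00103, limma). Without room air 1 the log2 difference was 0.91.

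Slc11a2 encodes the divalent metal transporter that imports ferrous iron, and 3 probes measured it. The brightest, A_51_P388737, gave log2 ratios of 0.11, -0.22, -0.04, -0.08 and 0.04 in room air 1 to 5 and 0.13, 0.42, 0.33, 0.43 and 0.22 in smoke 1 to 5. The groups met closely without overlap, with room air 1 just below smoke 1. The log2 difference was 0.34, a fold change of 1.27 (SE 0.08, adjusted p = 0.0198, limma). Without smoke 2 the adjusted p was 0.0507 and without smoke 4 it was 0.0502, with log2 differences of 0.32 and 0.31. The call was also lost with normexp at an offset of 0 (adjusted p = 0.0678), median centring (0.377), the scaled red signal (0.310) and the quantile-normalized red channel (0.202). The log2 differences there were, in that order, 0.39, 0.24, 0.33 and 0.31. Over the 24 alternatives the adjusted p ran from 0.00515 to 1. The lowest came from a setting chosen after the data were seen, and the highest from the authors' processed table.

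Of the other 2 Slc11a2 probes, neither passed with all arrays. Probe A_52_P196476 gave 0.91, 0.89, 0.78, 0.69 and 0.60 in room air 1 to 5 and 1.00, 1.05, 1.04, 0.90 and 1.03 in smoke 1 to 5. Its groups overlapped through room air 1 and smoke 4, and its log2 difference of 0.23 (SE 0.06) had an adjusted p of 0.0591, or 0.0347 with the slide as a block and 0.0260 without room air 1 (limma). Smoke was above room air on 5 of 5 slides for this probe, by 0.090 to 0.43. Probe A_52_P254298 ranged from -0.24 to 0.49 in room air and from -0.21 to 0.25 in smoke. Its log2 difference was 0.07 (SE 0.13, adjusted p = 0.883, limma), or 0.02 without room air 1. Room air 4 and smoke 4, on the same slide, were the highest of their groups.

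Mt1 and Mt2 encode the metallothioneins made in most tissues, and lie near each other on chromosome 8. The 250 bases before the RefSeq start of each (build GRCm38.p6, plus strand) are shown because their levels moved together over the lungs, the Mt1 window at chr8:94178839-94179088 and the Mt2 window at chr8:94172368-94172617. Capitals mark matches, on either strand, to the metal response element written as TGCACNC or TGCGCNC:
Mt1 upstream: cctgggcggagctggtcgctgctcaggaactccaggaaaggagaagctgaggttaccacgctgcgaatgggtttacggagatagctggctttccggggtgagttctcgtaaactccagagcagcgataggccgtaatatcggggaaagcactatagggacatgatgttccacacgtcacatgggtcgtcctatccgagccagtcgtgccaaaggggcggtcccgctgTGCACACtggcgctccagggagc
Mt2 upstream: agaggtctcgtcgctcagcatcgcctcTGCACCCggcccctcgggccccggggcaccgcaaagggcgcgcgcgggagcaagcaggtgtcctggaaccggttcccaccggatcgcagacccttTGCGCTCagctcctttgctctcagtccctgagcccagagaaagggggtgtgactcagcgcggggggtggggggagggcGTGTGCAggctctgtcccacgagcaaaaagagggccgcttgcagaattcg
Bases past the RefSeq start used were not searched, so these counts cover the printed windows only and not the whole promoter. The Mt1 window held 1 match, 23 bases before the start. The Mt2 window held 3, at 223, 128 and 50 bases before the start, the last on the minus strand, and 1 match to the antioxidant response element TGACNNNGC at 79 bases, left in lower case. Of 32851 promoters of the same length, 10.4% held TGCACNC, 12.5% TGCGCNC, 21.4% at least 1 of these forms, and 10.2% TGACNNNGC. The search covered both strands, no matches share a position in the Mt1 and Mt2 windows, and a match describes letters only. In all, 8 of the 10 genes matched the table, with 11 windows. The others with a metal form were those of Tfrc, where 1 window held 2 matches that overlap on opposite strands, 53 and 50 bases before the start; the windows of Fth1, Ftl1, Slc11a1, Cp and Cd163 held none of these letters. Slc40a1 and Slc11a2 were not listed.

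Mt1 was measured by 2 probes that cover different stretches of chromosome 8. The brighter, A_51_P294979, lies at chr8:92769155-92769214 of mm7, plus strand, and has 10 spots per array, of which 8 in room air 2 and 9 in room air 4 were used after outlier spots were left out; its bases are given because the probes disagreed, with no motif marked:
Mt1 probe: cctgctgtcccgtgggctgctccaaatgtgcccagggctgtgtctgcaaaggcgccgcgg
Its log2 ratio was -0.45, -2.28, -2.56, -2.18 and -2.59 in room air 1 to 5 and -1.46, -1.11, -1.32, -1.40 and -1.46 in smoke 1 to 5. Room air 1 lay above every smoke lung, while the other 4 controls lay below every smoke lung. The spots of an array had an SD of 0.06 to 0.17, which measures technical spread within an array only. With all arrays the log2 difference was 0.66 (SE 0.34) and did not pass (adjusted p = 0.359, limma). Without room air 1 it was 1.05 (SE 0.10, adjusted p = 7.59e-05). The dimmer probe, A_52_P423810, at chr8:92768988-92769047, gave 0.17, -1.20, -0.90, -0.76 and -1.08 in room air 1 to 5 and -0.97, -0.71, -0.88, -0.86 and -1.13 in smoke 1 to 5. Room air 1 was again the highest, but the other controls overlapped the smoke lungs. Its log2 difference was -0.15 (SE 0.22, adjusted p = 0.826, limma), or 0.08 without room air 1.

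Mt2 had log2 ratios of 0.76, -3.17, -3.73, -3.08 and -3.62 in room air 1 to 5 and -1.69, -1.43, -1.56, -1.84 and -1.56 in smoke 1 to 5. Room air 1 was the highest of the 10 lungs and the other 4 controls the lowest. With all arrays the log2 difference was 0.95 (SE 0.71, adjusted p = 0.592, limma). Without room air 1 it was 1.78 (SE 0.14, adjusted p = 1.28e-05).

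The channels of Mt2 show where the distance lay. The quantile-normalized log2 red intensity of Mt2 was 16.16, 12.77, 12.01, 12.81 and 12.43 in room air 1 to 5, and 14.18, 14.43, 14.04, 14.01 and 14.37 in smoke 1 to 5. The log2 green intensity, of the reference, was 15.12, 15.62, 15.40, 15.47 and 15.55 in room air and 15.59, 15.55, 15.32, 15.48 and 15.51 in smoke. Room air 1 stood out in the lung channel, and its reference signal was the lowest of the 10 by a small amount. For Mt1 (A_51_P294979) the log2 red intensity was 13.69 in room air 1 against 11.76 to 12.37 in the other controls and 12.94 to 13.56 with smoke. For Cp it was 13.26 in room air 1 against 11.86 to 12.47 in the other controls and 13.22 to 13.85 with smoke.

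**Figure D2:**
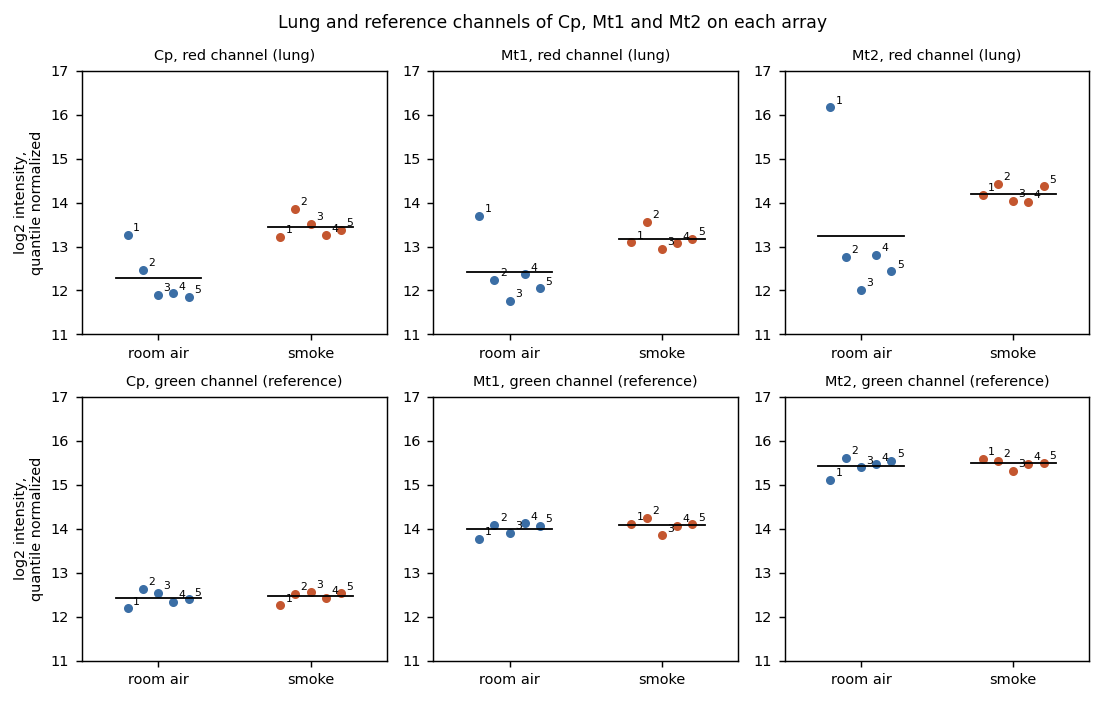
Quantile-normalized log2 intensity (vertical axis, 11 to 17 in every panel) of Cp, Mt1 (A_51_P294979) and Mt2 in the red lung channel (top) and the green reference channel (bottom), for 5 room air (blue) and 5 smoke (red-brown) arrays; numbers are replicate numbers and lines group means. Mt2 in red reached 16.16 in room air 1 and 12.01 to 12.81 in the other controls, and in green stayed between 15.12 and 15.62.

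Cd163 encodes the macrophage receptor for hemoglobin bound to haptoglobin. Its log2 ratio was 1.93, 1.75, 2.29, 2.60 and 1.73 in room air 1 to 5 and 2.12, 1.48, 2.61, 2.59 and 1.96 in smoke 1 to 5. The groups overlapped over most of their range, with smoke 2 the lowest lung. The log2 difference was 0.09 (SE 0.23, 95% interval -0.42 to 0.60, adjusted p = 0.918, limma), and it was -0.057 with the scanner's own ratio and -0.024 without smoke 3. Its reference signal was well above background on 6 of 10 arrays, and on the others the ratio is less certain.

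On single slides, each of which held 1 smoke and 1 room air array of the same number, smoke was above room air on 5 of 5 slides for Fth1 (by 0.40 to 0.66), Ftl1 (0.54 to 0.92), Slc40a1 (0.25 to 0.52), Slc11a1 (0.36 to 0.94) and Slc11a2 (A_51_P388737, 0.02 to 0.64). For Cp, Mt1 (A_51_P294979) and Mt2 it was above on 4 of 5 slides. On slide 1, which carries room air 1, the log2 difference was -0.13 for Cp, -1.01 for Mt1 and -2.45 for Mt2, and on the other 4 slides Mt2 differed by 1.74, 2.16, 1.24 and 2.06. For Cd163 smoke was above on 3 of 5 slides. The dimmer Mt1 probe, A_52_P423810, was higher with smoke on 2 of 5 slides (-1.14 to 0.49). Slc11a2 probe A_52_P254298 was higher on 4 of 5 (-0.24 to 0.24).

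**Figure D3:**
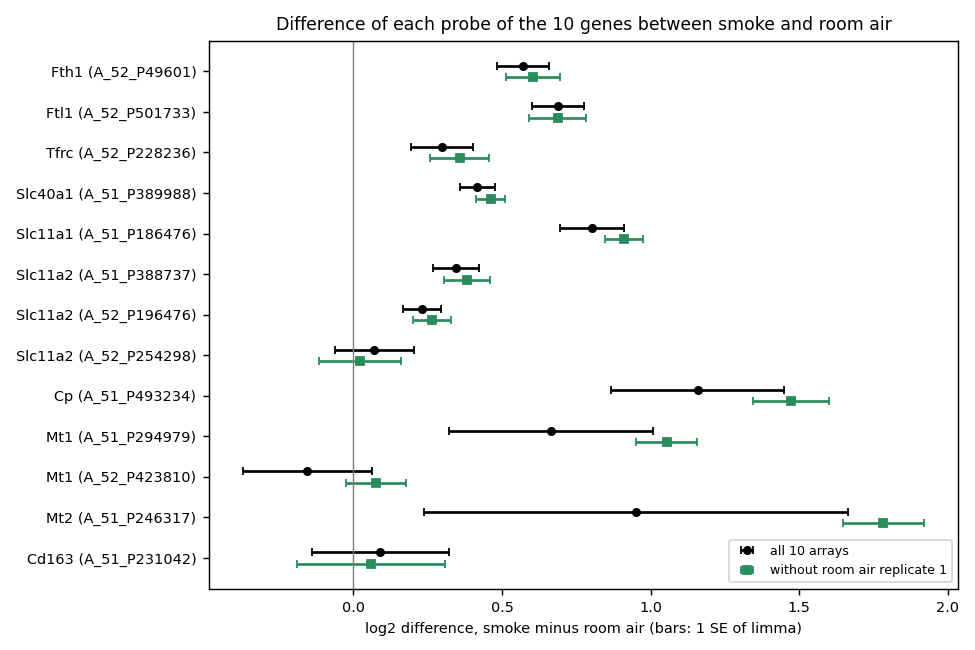
Log2 difference, smoke minus room air (horizontal axis; bars are 1 SE of limma) for each of the 13 probes, with all 10 arrays (black circles) and without room air replicate 1 (green squares). Cp moved from 1.16 to 1.47, Mt1 (A_51_P294979) from 0.66 to 1.05 and Mt2 from 0.95 to 1.78, with smaller SEs.

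The reference channel was tested in the same way. Green divides red in the ratio, so a rise in green lowers the ratio and a fall in green raises it. In green, limma called 0 of the 13 probes (adjusted p = 1.00 for each), against 0.034% of all probes, and 1 of the 13, Fth1, had an unadjusted p under 0.05, with a green log2 difference of -0.18 (SE 0.07). For red alone the log2 difference of Fth1 was 0.50 with the processed signal scaled to its 75th percentile (adjusted p = 0.178, limma) and 0.30 with quantile normalization (adjusted p = 0.0421), which narrows differences among the brightest probes, of which Fth1 is one. The part of the reference in the Fth1 ratio was not tested.

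Over the 10 arrays the log2 ratios of some members varied together. The Pearson correlation was 0.98 between Mt1 and Mt2, 0.96 between Slc40a1 and Slc11a1, 0.93 between Slc11a1 and Cp, 0.92 between Fth1 and Ftl1 and 0.92 between Cp and Mt1. Ftl1 and Mt2 had a correlation of 0.31, and Cd163 lay between -0.12 and 0.12 with each of the other 9. These are descriptions, since the 10 arrays share slides and the smoke effect. Room air 1, far above the other controls for Cp, Mt1 and Mt2, also enters them, and they were not computed without it.

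Among 13906 other genes well above background on all arrays, those most like each member over the 10 arrays were as follows, by Pearson correlation of log2 ratios. For Fth1 these were Cyp4v3 (0.986), Aspg and Mgst1, and for Ftl1 they were Ftl2-ps (0.988), Hmga2-ps1 and Atp6v0d2. Slc40a1 was most like Apobec1 (0.991), Egr2 and Lgi2, and Slc11a1 most like Slc16a6 (0.995), Csf2rb and Fcer1g. Slc11a2 was closest to Man1a (0.945), Tcirg1 and Ncoa3, and Tfrc to Ap2s1 (0.938), Bola2 and Abracl. For Cp they were Elf3 (0.991), Noxo1 and Vmp1. Mt1 was nearest to Tnip1 (0.986), Tnfaip2 and Timp1, and Mt2 to Ctps (0.991), Sod2 and Tnip1, so Tnip1 appeared for both. Cd163 was closest to Pecr (0.923), Psmc2 and Kbtbd13. Shared slides, the smoke effect and room air 1 enter each of these correlations, and they say nothing of shared function. They were not computed without room air 1, which weighs most on those of Cp, Mt1 and Mt2.

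The other genes of metal handling were taken from 10 lists, which hold 110 measured genes with the members counted. Of these, 21 were higher and 5 lower with smoke, or 23.6%, beside 7.06% of all probes and 8.23% of all genes by their brightest probe, and the median log2 difference was 0.03. Without the members, 15 of 100 were higher and 5 lower. The lists were chosen with earlier results of these data known, so these shares are descriptions and not tests. With the slide as a block, 26 were higher and 8 lower, while 3814 of all 27669 genes were called, against 2276 without the block. With room air 1 left out there were 28 higher and 5 lower, while 2864 of all genes were called. Genes called without room air 1 but not with it included Mt1, Mt2, Steap4, Ltf, Hpx and Slc39a1, and none of the 26 lost its call there. For the 20 called genes outside the members, the direction was the same under each of 7 other background corrections, scalings and channels, and 14 kept their call without each array in turn. Under those 7 settings the calls were kept less widely: Alas1, Slc25a37 and Slc39a11 were called in 7 of 7, Fech and Cpox in 1, Slc39a3 in 2, Atox1, Lrp1 and Abcg2 in 3, and the others in 4 to 6. The median log2 difference was 0.11 for iron uptake, 0.28 for iron storage and chaperones, 0.42 for iron export, -0.11 for iron regulators, 0.16 for heme synthesis and 0.24 for heme uptake, transport and degradation. It was -0.056 for mitochondrial iron, 0.20 for metallothioneins, 3.95e-05 for zinc transporters and 0.12 for copper handling, beside -0.0042 over all genes. Each of these medians includes room air 1 and is not given without it.

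**Figure D4:**
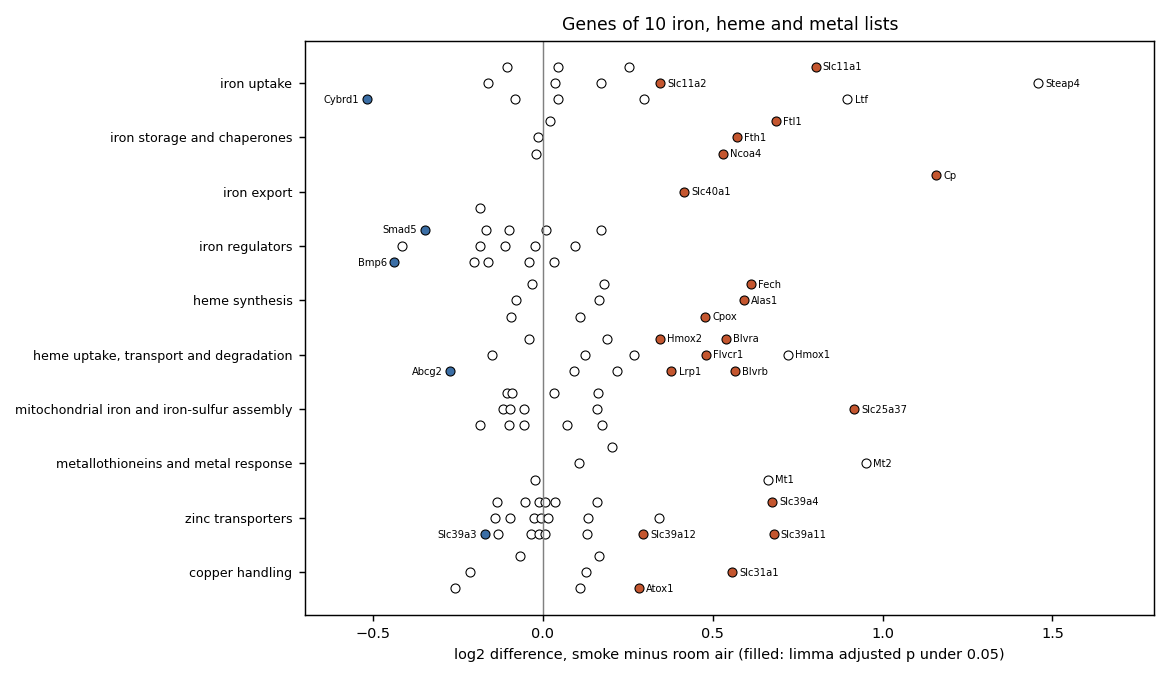
Log2 difference, smoke minus room air (horizontal axis), for each gene of 10 iron, heme and metal lists (vertical axis), 1 point per gene; filled points passed limma's adjusted p of 0.05, red-brown higher and blue lower with smoke, and vertical offsets within a list only separate points. Filled points lie between -0.52 for Cybrd1 and 1.16 for Cp, and Steap4, open at 1.46, lies farthest to the right, with a reference signal well above background on 1 of 10 arrays.

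In the iron uptake list, 2 of 14 genes were higher, both members, and 1 was lower. With the slide as a block 6 were higher and 1 lower, the added ones being Tfrc, Steap4, Ltf and Trf, transferrin (log2 difference 0.25, adjusted p = 0.510, or 0.0271 with the block; limma). In green the log2 difference of Trf was 0.27 (SE 0.06, adjusted p = 0.558, limma, with an unadjusted p under 0.05), and a rise in green lowers the ratio. Cybrd1, a ferric reductase, fell by 0.52 on the log2 scale (SE 0.12, adjusted p = 0.0240, limma), and kept its call in 5 of 10 fits without 1 array, with a highest adjusted p of 0.0671 without smoke 5; its reference signal was well above background on 4 of 10 arrays. Of the iron storage genes, 3 of 6 were higher, with the Ftl2-ps probe, described beside Ftl1 and higher too, left out of the count: both ferritin genes and Ncoa4, the receptor that carries ferritin to the lysosome, which rose by 0.53 (SE 0.07, adjusted p = 0.000911). In the iron export list, Slc40a1 and Cp were higher and Heph, a membrane ferroxidase, had a log2 difference of -0.18 (SE 0.14, adjusted p = 0.597), with a reference signal well above background on 2 of 10 arrays; Hephl1 was not measured. Of 15 iron regulators, 2 were lower and 0 higher. Bmp6, a signal that induces hepcidin, fell by 0.44 (SE 0.08, adjusted p = 0.00450), and Smad5, which carries such signals to the nucleus, fell by 0.35 (SE 0.06, adjusted p = 0.00337). For the green reference signal of Bmp6 the log2 difference was -0.46 (SE 0.08, adjusted p = 0.248, limma, with an unadjusted p under 0.05). With the slide as a block 4 were lower, the added ones being the hepcidin genes Hamp (log2 difference -0.41, adjusted p = 0.177, or 0.0208 with the block) and Hamp2 (-0.17, adjusted p = 0.209, or 0.0492 with the block). The reference signal of Hamp was well above background on 1 of 10 arrays. Trf, Hamp and Hamp2 were named after their values were seen.

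In the heme synthesis list, 3 of 9 genes were higher. Alas1, the rate-limiting enzyme in most tissues, rose by 0.59 on the log2 scale (SE 0.08, adjusted p = 0.00126, limma). Fech, which inserts iron into the porphyrin ring, rose by 0.61 (SE 0.16, adjusted p = 0.0408), with an adjusted p of 0.0601 with the slide as a block, and Cpox, an earlier enzyme, rose by 0.48 (SE 0.13, adjusted p = 0.0467). Each of these last 2 kept its call in 3 of 10 fits without 1 array, and the adjusted p was at most 0.105 for Fech, without smoke 1, and 0.110 for Cpox, without room air 3. Of the 14 genes of heme uptake, transport and degradation, 5 were higher and 1 lower. Blvra and Blvrb, the biliverdin reductases, rose by 0.54 and 0.57 (adjusted p = 0.00111 and 2.91e-05), Flvcr1, a heme exporter, by 0.48 (0.00228), Hmox2, the constitutive heme oxygenase, by 0.34 (0.000618) and Lrp1, a receptor for heme bound to hemopexin, by 0.38 (0.0330). Lrp1 kept its call in 4 of 10 fits without 1 array (highest adjusted p 0.0840, without room air 3). Abcg2, a pump that also carries porphyrins, fell by 0.27 (SE 0.06, adjusted p = 0.0119).

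In the list of mitochondrial iron genes 1 of 14 was higher: Slc25a37, mitoferrin, which carries iron into mitochondria, rose by 0.92 on the log2 scale (SE 0.13, adjusted p = 0.00109, limma). None of the 5 genes of the metallothionein list passed with all arrays, at a median log2 difference of 0.20, and 1 of the 5 passed with the slide as a block: Mt3, the brain form, differed by 0.20 (SE 0.06, adjusted p = 0.0877, or 0.0312 with the block). Mt4 differed by 0.10 (SE 0.06, adjusted p = 0.378) and Mtf1, the factor that binds metal response elements, by -0.02 (SE 0.08, adjusted p = 0.947). Of 22 zinc transporters, 3 were higher and 1 lower. Slc39a11 and Slc39a4, zinc importers, rose by 0.68 and 0.67 (adjusted p = 0.000826 and 0.000589). In the reference channel the log2 difference of Slc39a4 was 0.70 (SE 0.15, adjusted p = 0.498, limma, with an unadjusted p under 0.05). Slc39a12 rose by 0.29 (adjusted p = 0.0119); it was well above background in red in 3 of 5 room air and 5 of 5 smoke lungs and in green on 0 arrays. Slc39a3, named after its values were seen, fell by 0.17 (adjusted p = 0.0444) and kept its call in 1 of 10 fits without 1 array, with a highest adjusted p of 0.110 without smoke 5. Of 8 copper genes, Slc31a1, the copper importer, rose by 0.56 (adjusted p = 0.00354) and Atox1, a copper chaperone, by 0.28 (adjusted p = 0.0353), the latter keeping its call in 2 of 10 fits without 1 array (highest adjusted p 0.0860, without smoke 1). With the slide as a block 1 copper gene was lower, the exporter Atp7a, named after its values were seen (log2 difference -0.26, adjusted p = 0.236, or 0.0165 with the block).

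Some pathway genes were not called with all arrays, and those named next were chosen after their values were seen. Without room air 1, Steap4, a metalloreductase, had a log2 difference of 1.97 (adjusted p = 9.04e-06, limma), against 1.46 (adjusted p = 0.0893) with it. Its reference signal was well above background on 1 of 10 arrays, so the size of its ratio is uncertain. Ltf, lactoferrin, had 1.22 (adjusted p = 0.0137) against 0.90 (0.207), and Hpx, hemopexin, 0.58 (adjusted p = 0.00437) against 0.19 (0.879). Hmox1, the inducible heme oxygenase, differed by 0.72 (SE 0.33, adjusted p = 0.270), or 0.0462 as the adjusted p with the slide as a block, and its groups overlapped.

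Markers of some lung cell types also moved with smoke. Their lists too were chosen with earlier results of these data known. Whether a listed gene comes from the named cells alone in whole lung was not tested. Of the alveolar macrophage markers, 4 of 9 were higher: Marco by 2.60, Chil3, the most abundant, by 2.12, Itgax by 1.34 and Pparg by 0.78 on the log2 scale. The other 5, named after their values were seen, were not called (adjusted p from 0.291 to 0.984, limma). Their log2 differences were -0.25 for Fabp4, -0.094 for Car4, 0.012 for Ear1, 0.25 for Siglecf and 0.35 for Krt79. Without room air 1 they were, in that order, -0.024, -0.023, -0.074, 0.16 and 0.28. The reference signal of Siglecf was well above background on 0 of 10 arrays. The adjusted p of the called genes in the macrophage lists was at most 0.0139 (limma, for Cx3cr1). The summed quantile-normalized red signal of the alveolar macrophage list, of which Chil3 was the largest part, was 43353, 43732, 45904, 40126 and 39841 in room air 1 to 5 and 125455, 126978, 128043, 115868 and 121336 in smoke 1 to 5. Of the pan-macrophage markers, 4 of 6 were higher: Cd68 by 2.06, Adgre1 by 1.39, Mrc1 by 1.14, with a reference signal well above background on 2 of 10 arrays, and Csf1r by 0.58. Mertk, named after its values were seen, had a log2 difference of -0.22 (adjusted p = 0.211, or 0.0351 with the slide as a block). The sum of the pan-macrophage list, mostly Lyz2, the most abundant and not called (log2 difference 0.18, adjusted p = 0.705, limma), was 423110, 393822, 423163, 324181 and 423481 in room air and 373706, 375104, 460187, 333159 and 431599 in smoke. Of the markers of interstitial or perivascular macrophages, 6 of 8 were higher, among them Ms4a7 by 2.33, C1qb by 1.32, Cx3cr1 by 0.89, C1qa by 0.78 and C1qc by 0.56. Their sum was 13009, 14520, 12498, 10415 and 10572 in room air and 27490, 28812, 24484, 24821 and 26392 in smoke, and Lyve1, the most abundant, was not called (0.29, adjusted p = 0.713; reference signal well above background on 1 of 10 arrays). In the reference channel Itgax, C1qa and C1qc were also called, with green log2 differences of 0.67, 1.02 and 1.23 (adjusted p = 0.000481, 0.000481 and 0.00302, limma). A rise in green lowers the ratio, and the cause of these green differences was not tested. Marco, at 0.88 (SE 0.17, adjusted p = 0.304), and Cx3cr1, at 0.22 (SE 0.06, adjusted p = 1.00), were not called in green but had an unadjusted p under 0.05 there. The alveolar and interstitial sums were higher in each smoke lung than in any room air lung, as were the levels of Ftl1 and Slc11a1, and the part of macrophage number in those levels was not tested.

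Room air 1 was also high in neutrophil and monocyte markers. The neutrophil list had a summed red signal of 151408, 28755, 21801, 23201 and 32608 in room air 1 to 5 and 60944, 45885, 34528, 39949 and 40712 in smoke 1 to 5, and 2 of its 7 measured genes were higher with smoke, Mmp8 by 1.16 (adjusted p = 0.0210) and Camp by 0.60 (adjusted p = 0.00881) on the log2 scale. The reference signal of both was well above background on 0 of 10 arrays, so the sizes of these ratios are uncertain. With room air 1 left out, 3 of the 7 were called, S100a8 among them (log2 difference 0.97, adjusted p = 0.00458, against 0.47 and 0.718 with it); it was named after its values were seen. Mmp8 kept its call in 6 of 10 fits without 1 array, with a highest adjusted p of 0.0562 without smoke 1 (limma). S100a9 was the most abundant (log2 difference 0.16, adjusted p = 0.852, limma), and without room air 1 its log2 difference was 0.33 (adjusted p = 0.495). Ngp was well above background in 0 room air and 1 smoke lungs. The monocyte sum was 9059, 7054, 5832, 6824 and 6874 in room air and 6089, 6505, 5456, 6890 and 5727 in smoke; limma called 0 of 4 genes with all arrays, and without room air 1 it called Ccr2, named after its values were seen (log2 difference 0.67, adjusted p = 0.0280, against 0.42 and 0.500 with it), also with a reference signal well above background on 0 of 10 arrays. Ace was the most abundant (-0.09, adjusted p = 0.817, limma), and whether its signal came from monocytes was not tested. The high Cp, Mt1 and Mt2 of room air 1 stood beside these high sums, and the part of those cells in them was not tested.

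**Figure D5:**
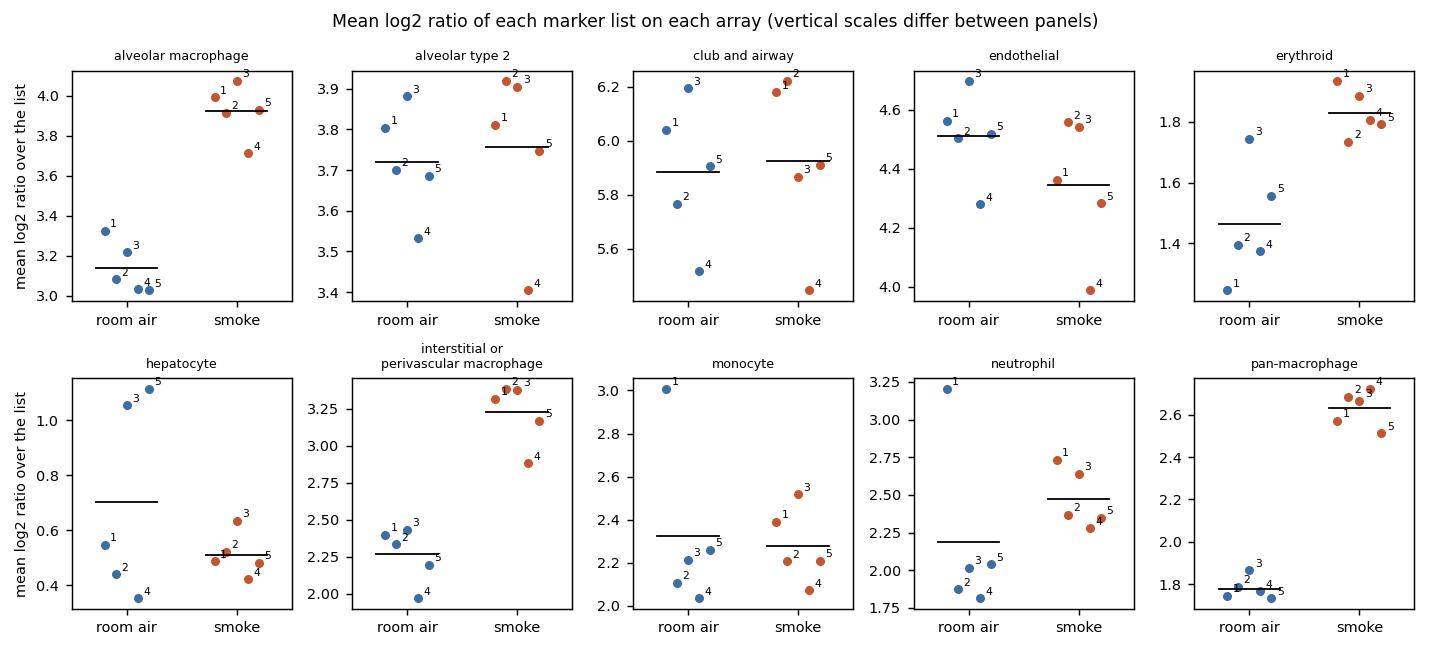
Mean log2 ratio of lung over reference over the measured genes of each of 10 cell type marker lists (vertical axis, scale set per panel) in 5 room air (blue) and 5 smoke (red-brown) lungs; numbers are replicate numbers and lines group means. Room air 1 had 3.20 in the neutrophil list, where the other controls had 1.81 to 2.04, and the pan-macrophage means were 1.73 to 1.87 in room air and 2.51 to 2.72 with smoke.

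Of the erythroid markers, 1 of 6 measured was higher, Slc4a1 by 1.29 (adjusted p = 0.0144, limma; called in 4 of the 7 other background corrections, scalings and channels), and Hba-a1, the most abundant, was not called (0.10, adjusted p = 0.839). In green these 2 genes had log2 differences of 0.40 and 0.39 (adjusted p = 1.00 for both, limma), with unadjusted p under 0.05. The sum of the erythroid list was 336092, 221049, 388323, 276210 and 361180 in room air 1 to 5 and 448273, 320846, 362322, 390022 and 339012 in smoke 1 to 5, and their part in the heme synthesis result was not tested. Of the endothelial markers, 1 of 5 was lower: Pecam1 fell by 0.41 (adjusted p = 0.0488), and was called in 2 of the 7 other background corrections, scalings and channels. It kept its call in 3 of 10 fits without 1 array (highest adjusted p 0.119, without smoke 5). In green its log2 difference was -0.31 (SE 0.06, adjusted p = 0.256, limma), and Tie1, Vwf and Kdr, named after their values were seen, had -0.39, -0.27 and -0.23 (adjusted p = 0.283, 1.00 and 1.00), all 4 with an unadjusted p under 0.05. The sum of the endothelial list, with Vwf the most abundant (-0.10 in the ratio, adjusted p = 0.790), was 47849, 64287, 58532, 50579 and 51644 in room air and 39702, 45379, 47280, 38834 and 39839 in smoke. None of the 5 alveolar type 2, 4 club and airway and 4 measured hepatocyte markers was called by limma. Their most abundant genes were Sftpc (-0.13, adjusted p = 0.838), Scgb1a1 (-0.20, adjusted p = 0.684) and Cyp2e1 (0.16, adjusted p = 0.808), the last with a reference signal well above background on 0 of 10 arrays. The alveolar type 2 sum, 653323 to 662807 in room air and 655940 to 660743 in smoke, is nearly all Sftpc, which was saturated on 1 array, and quantile normalization gives the brightest probes nearly the same value on every array, so that sum shows nothing about those cells. The sums were 527691 to 639372 and 445637 to 588734 for club and airway, and 360 to 1467 and 397 to 480 for the hepatocyte list, in which Ttr was well above background on 0 arrays. The median log2 differences of the marker lists were 0.35 for alveolar, 0.86 for pan-macrophage and 0.83 for interstitial macrophage markers, -0.15 for monocyte, 0.16 for neutrophil, 0.19 for erythroid and -0.10 for endothelial markers, and 0.058, 0.067 and -0.065 for alveolar type 2, club and airway, and hepatocyte markers. These medians include room air 1, and without it every measured neutrophil and monocyte gene had a higher log2 difference. Among them, and named after their values were seen, Cxcr2 of the neutrophil list had 0.50 against 0.095 with it. Plac8 of the monocyte list had -0.016 against -0.21.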

How the data were processed

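RNA of each lung was hybridised to 1 Agilent 2-colour array, 5 room air and 5 smoke. Per the file headers, spot and local background intensities come from Feature Extraction 9.5.3.1, while the submitters' processing notes name version 9.1, and the array design uses genome build mm7. The deposited log10 ratios are red over green of the signals that the software had background-subtracted and dye-normalized. Flags for outliers, saturation and spots well above background are those of the software per the file headers. The authors' value table holds log2 values, which equal the mean log2 of both channels of median signal minus median background. All 286449 of them equal, within 1e-04, the scanner values of the opposite group's array with that number, while 286 equal their own array's. That table was therefore used only as an alternative. Its column medians were 8.03, 7.86, 7.34, 8.03 and 7.84 in room air 1 to 5 and 7.96, 8.06, 7.81, 7.66 and 7.88 in smoke 1 to 5. The table itself does not settle the direction of its columns, and directions here follow the scanner files.

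Mean signals were corrected with normexp (offset 50), and log2 ratios of red over green were normalized by loess within each array. Control and outlier spots were left out, and spots of 1 probe were averaged. The groups were compared with limma 3.58.1 in R 4.3.3 (lmFit and eBayes, two-sided, tested on simulated data), with Benjamini-Hochberg adjustment over 41173 probes and a threshold of 0.05. The methods of the study name limma for normalization and Wilcoxon tests for the comparison; limma's test was the main one here, since the smallest exact Wilcoxon p of 5 against 5 arrays is 0.00794 before adjustment. A gene is represented by its probe with the brightest mean red signal. Of 41174 probes, 22951 were named by accession, 6659 by current symbol, 3109 by synonym and 8455 by the name in the files. Upstream sequences are those of RefSeq for build GRCm38.p6, and probe sequences and positions are as deposited, on mm7.

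Arrays of the same number shared a slide, 1 of each group on each of 5 slides scanned over 4 days. Their deviations from the group means correlated at 0.157, 0.460, 0.461, 0.550 and 0.415, against a median of -0.124 and at most 0.205 for different numbers. The number therefore pairs the arrays, and a fit with it as a block was an alternative. Other alternatives were the exact Wilcoxon test, other background corrections, normalizations and channels, filters, averaging a gene's probes, and each array left out in turn.

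The 10 genes, the 10 metal lists and the 10 cell type marker lists were chosen with earlier results of these data known. The text names every member, the called pathway genes up to the 25 largest log2 differences, all genes of lists of 5 or fewer, the most abundant and the called genes of each marker list, and the 3 genes most like each member, except for an item that is not reported here.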

Additional observations from a re-analysis of the deposited data

Results flagged for a closer look

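In 4 of 72 groups of 5 log2 ratios examined, a single lung stood far from the other 4. Chance alone sets a lung apart in about 1 in 20 groups, and genes that vary together are not separate cases. Room air 1 was such a lung for 3 genes. Its log2 ratio of lung over reference was 0.59 for Cp, where the other controls lay between -1.13 and -0.65. For Mt1 it was -0.45 against -2.59 to -2.18, and for Mt2 it was 0.76 against -3.73 to -3.08. The fourth case was room air 3 for Slc25a37, with -0.061 against -0.62 to -0.48 in the other controls.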

How the results depend on the processing

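With the replicate number, which is also the slide, as a block, 5019 probes were called by limma against 2906. Among the genes named here the block gave a call to Tfrc (adjusted p = 0.0492), Mt3, Hmox1, Steap4, Ltf, Trf, Hamp, Hamp2, Atp7a and Mertk and to the other Slc11a2 probe, A_52_P196476, and took that of Fech; it changed no other call of a member or of a called pathway gene. With slide 1 left out and the block kept, a setting chosen after seeing the data, 6088 probes and 10 member probes were called, with Tfrc, Mt1 and Mt2 among the genes (adjusted p = 0.0136, 3.01e-05 and 3.35e-05).

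The exact Wilcoxon test called 0 probes, 0 member probes, 0 member genes and 0 pathway genes after adjustment; unadjusted, 5444 of 41133 probes, 6 member probes and 32 pathway genes had p under 0.05, and 0.00794 is the smallest exact p that 5 against 5 arrays can give. With normexp at an offset of 0, 1660 probes and 16 pathway genes were called, and with median centring 1434 and 13, against 26 pathway genes as reported. The share of called probes that was higher was 61.7% as reported, 73.3% with an offset of 0 and 47.9% with median centring. The red processed signal alone called 1759 probes, 3 member probes, 3 member genes and 15 pathway genes. The cause of these moves was not tested.

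The authors' value table, with groups as its columns are labelled, called 13 of 30099 probes, 0 member probes, 0 member genes and 0 pathway genes (unadjusted, 764, 1 member probe and 5 pathway genes). Each member had the opposite sign there: Fth1 -0.089, Ftl1 -0.34, Tfrc -0.13, Slc40a1 -0.042, Slc11a1 -0.40, Slc11a2 -0.071, Cp -0.57, Mt1 -0.37, Mt2 -0.48 and Cd163 -0.57, in log2. That table averages both channels, and its columns hold the arrays of the opposite group. The log2 difference of Cd163 was also negative with the scanner's own ratio (-0.057).

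Leaving out 1 array gave 2102 (without smoke 5) to 3660 (without room air 1) called probes, 4 to 9 member probes, 4 to 8 member genes and 19 to 33 pathway genes. In those fits Fth1, Ftl1, Slc40a1 and Slc11a1 were called 10 times of 10, Slc11a2 8 times, and Cp, Mt1 and Mt2 1 time each, without room air 1. The log2 difference of Cd163 ran from -0.024 to 0.26, with no call. Red signal was 1.68 to 2.82 times background on these arrays, which limits the ratios of dim probes, and 5 lungs a group limit every error given.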
